A study of Mus musculus with 2 samples.

Results

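Retinoic acid is the active form of vitamin A, and 9 genes that carry its precursor into cells, make it, bind it, respond to it or break it down were examined in mouse hair follicles. They were chosen by gene symbol and ordered by step from uptake to breakdown: Stra6, Adh1, Aldh1a2, Aldh1a3, Crabp2, Rarb, Rarg, Rxra and Cyp26b1. Together they are represented by 14 of the 45037 non-control probe sets, and by 9 of the 18193 genes with a symbol of their own. The values of the comparison described here were known when the genes were chosen, so that their ratios are a description and not a test.

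The study sought targets of signalling through FGFR2-IIIb, a splice form of a fibroblast growth factor receptor, in hair follicles. One Affymetrix mouse array held RNA of wild-type follicles and the other RNA of follicles from dnFGFR2-IIIb transgenic mice, both at postnatal day 10. Each array received 1 pool of about 300 follicles, to which 3 mice of different litters gave about 100 each. Strain, sex and the promoter that drives the transgene are not stated by the labels. Sex-linked genes differed between the pools, as given below. With 1 array per group there was no replicate spread, the pools hide the differences between mice, and no p-value can be given.

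Retinol circulates bound to a carrier protein and enters cells through the membrane receptor STRA6. Alcohol and short-chain dehydrogenases oxidise it to retinaldehyde, and retinaldehyde dehydrogenases of the ALDH1A family oxidise that irreversibly to retinoic acid. CRABP2 hands retinoic acid to nuclear receptors, in which a retinoic acid receptor (RAR) pairs with a retinoid X receptor (RXR) on DNA, and CYP26 enzymes break retinoic acid down. In skin, retinoids are known to affect keratinocyte differentiation and hair growth.

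The receptor pair binds direct repeats of a 6-letter core, and a gap of 5 letters, called DR5, is the classical arrangement at retinoic acid response elements. The promoter of Rarb holds the textbook example, and that of Cyp26a1, the retinoic acid hydroxylase most closely tied to such an element, holds another. Both are shown because one of these genes was detected on the arrays and the other was not, beside that of Cyp26b1, the CYP26 gene that was detected. The lines give the 250 bases before the annotated start, 5′ to 3′ along the gene, from RefSeq on GRCm38.p6, with the DR5 in capitals. The Rarb window is chr14:16575477-16575726 on the minus strand, the Cyp26a1 window chr19:37697558-37697807 on the plus strand, and the Cyp26b1 window chr6:84593811-84594060 on the minus strand.
Rarb: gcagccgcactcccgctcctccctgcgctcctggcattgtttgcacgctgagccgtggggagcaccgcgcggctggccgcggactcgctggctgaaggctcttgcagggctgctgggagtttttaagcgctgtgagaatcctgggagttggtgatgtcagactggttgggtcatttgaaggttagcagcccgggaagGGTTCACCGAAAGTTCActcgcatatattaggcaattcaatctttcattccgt
Cyp26a1: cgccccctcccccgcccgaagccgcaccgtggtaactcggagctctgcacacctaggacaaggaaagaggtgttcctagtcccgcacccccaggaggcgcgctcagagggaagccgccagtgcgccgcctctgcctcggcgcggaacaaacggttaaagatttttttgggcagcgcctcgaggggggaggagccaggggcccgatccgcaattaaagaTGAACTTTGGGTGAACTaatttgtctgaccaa
Cyp26b1: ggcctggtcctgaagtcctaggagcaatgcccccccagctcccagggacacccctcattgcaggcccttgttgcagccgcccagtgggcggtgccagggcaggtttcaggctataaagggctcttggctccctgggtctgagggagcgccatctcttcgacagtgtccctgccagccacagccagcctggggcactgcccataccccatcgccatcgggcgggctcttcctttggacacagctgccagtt

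The DR5 of Rarb reads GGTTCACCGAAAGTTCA and spans bases 53 to 37 before the start. In Cyp26a1 the repeat lies on the other strand, spans bases 32 to 16 before the start, and reads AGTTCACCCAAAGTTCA along that strand. The search used the cores AGGTCA and AGTTCA as well as GGGTCA and GGTTCA on both strands, with any letters in the gap. Of 32851 promoter windows of this length, 29 (0.0883%) held a DR5 and 38.6% held at least 1 core. Of the 9 genes, 7 had windows, 12 in all, since Stra6, Rxra and Rarg have several annotated starts. A core was found in 3 of these 12 windows and a DR5 only in that of Rarb. The absence of these letters from a window of 250 bases says nothing about elements farther away, and a match is not a measured binding site.

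Of the 9 genes, Stra6 for uptake, Adh1 and Aldh1a3 for synthesis and Crabp2 for binding were lower in the transgenic follicles. For the receptors among them, 1 gene was lower, and the bright probe sets of the others read alike (plot of the signals on both arrays). This does not extend to each step as a whole. Among other genes of retinol oxidation, 0 of 10 measured were 2-fold lower and 1 was 2-fold higher. Of 3 other measured genes of retinoic acid binding, 0 were 2-fold apart in either direction. Signals are linear intensities in arbitrary units, scaled to the same trimmed mean on both arrays. A signal counted as measured above a floor of 10.6, the 40th percentile of both arrays, and a gene was called higher or lower when it was measured on both arrays with signals at least 2-fold apart. Of 27 probe sets for bacterial control transcripts, 0 passed this floor with wild-type RNA and 3 with transgenic RNA. A dim transgenic signal just above the floor may thus be background. By the brightest probe set of each gene, 9 of 9 were measured on both arrays, 5 were at least 2-fold lower, 0 were at least 2-fold higher and 4 differed by less. Among all 11565 genes so measured, 1.58% were 2-fold lower and 1.6% were 2-fold higher, but the choice of the 9 genes used this contrast, so nothing is read from their count. In RNA of pooled follicles, fewer cells of a type and less RNA per cell cannot be told apart.

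**Figure D1:**
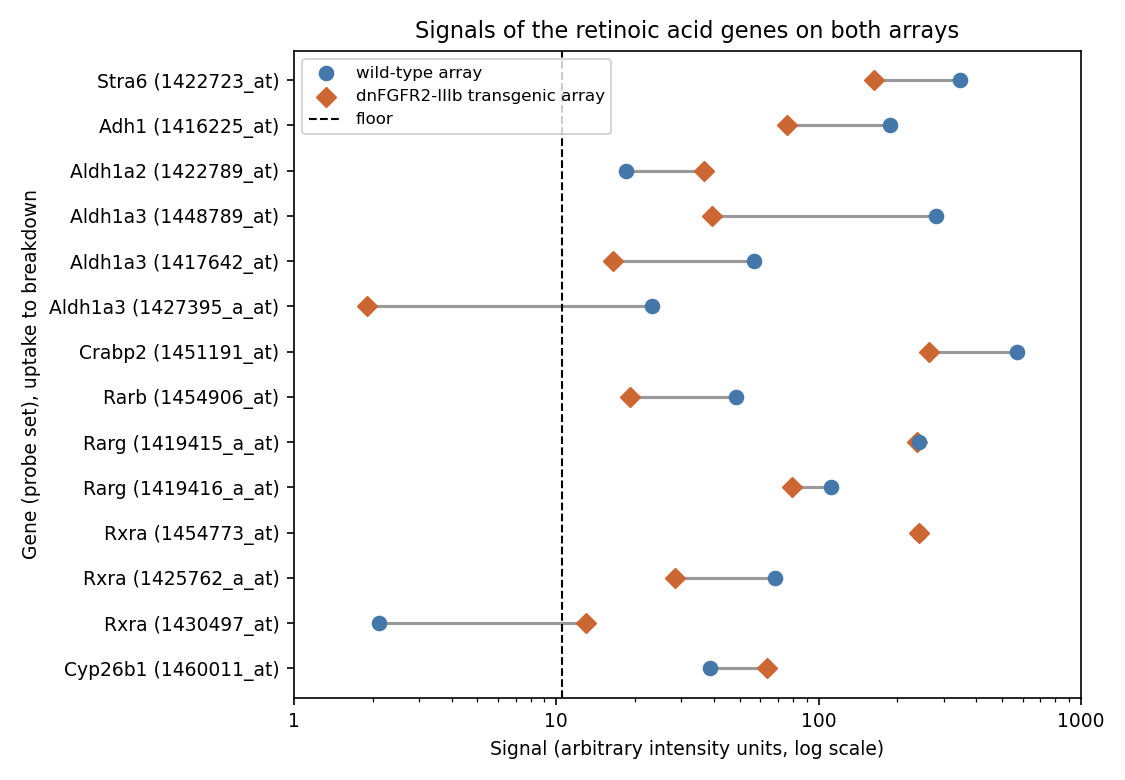
Signal of every probe set of the 9 genes (arbitrary intensity units, log scale) on the wild-type array (blue circles) and the dnFGFR2-IIIb transgenic array (orange diamonds), with the floor of 10.6 as a dashed line. The transgenic signal is the lower one for Stra6, Adh1, Aldh1a3, Crabp2, Rarb and Rarg, and the higher one for Aldh1a2 and Cyp26b1, while the probe sets of Rxra go different ways.

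Stra6, the retinol receptor of the cell membrane, read 344.9 in wild-type and 162.7 in transgenic follicles with its single probe set. This was a 2.12-fold lower signal (log2 ratio -1.08). For scale, probe sets of 1 gene in the same brightness tertile differed in log2 ratio with an SD of 0.36. That spread is between different probe sets of a gene on the same 2 arrays, is not purely technical and leaves out the mice.

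Adh1, an alcohol dehydrogenase that can oxidise retinol, read 187.9 and 75.9, a 2.48-fold lower signal in the transgenic follicles (log2 ratio -1.31, probe set SD 0.41). Its 3 relatives measured on both arrays were less far apart. Adh5, a broadly expressed class of the enzyme, read 765.8 and 739.7 (log2 ratio -0.05), whereas Adh6b read 2848.9 and 1846.1 (-0.63) and Adh6a read 356.4 and 276.2 (-0.37). Adh7 read 9.6 and 13.9 at its brightest probe set, with only the transgenic signal above the floor. Adh4 read 2.6 and 9.0, under the floor on both arrays. All of these relatives were chosen after their values were seen. Rdh10, the main retinol dehydrogenase of the embryo, read 211.5 and 225.8, and 69.6 and 76.1 at its other probe set, so that it was close to equal at both.

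Aldh1a3 was the gene of the 9 with the largest difference. Its brightest probe set, 1448789_at, read 281.1 in wild-type and 39.1 in transgenic follicles, which is 7.19-fold lower (log2 ratio -2.85, probe set SD 0.41). Its other probe sets went the same way. The probe set 1417642_at read 56.7 and 16.5, a 3.44-fold lower signal, and 1427395_a_at read 23.2 and 1.9, below the floor and thus at least 2.21-fold lower. Only 5 of the 11565 genes had a lower ratio than Aldh1a3. The 5 genes with the nearest log2 ratios, a likeness over 2 arrays only, were Ddhd1 (-2.87), Sprr1b (-2.52), Snai3 (-2.51), Zbtb16 (-3.19) and Sptssb (-2.48).

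Aldh1a2 encodes the retinaldehyde dehydrogenase that supplies most retinoic acid in the early embryo, and went the other way at a low level. It read 18.4 in wild-type and 36.7 in transgenic follicles, 1.99-fold higher (log2 ratio 1.0, probe set SD 0.52), just under the threshold. The brightest of 27 probe sets for bacterial control transcripts read 8.5 with wild-type and 15.8 with transgenic RNA, so that Aldh1a2 was above these controls on each array. Aldh1a1, the other main enzyme of this step, read 8.6 and 8.5 and was under the floor on both arrays, and the related Aldh1a7 read 15.1 and 0.9. Of these ALDH1A genes, Aldh1a3 and Aldh1a2 were thus above the floor on both arrays.

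Crabp2, the binding protein that delivers retinoic acid to its nuclear receptors, read 570.9 and 264.6, a 2.16-fold lower signal in the transgenic follicles (log2 ratio -1.11, probe set SD 0.36). Its paralogue Crabp1 was dim and equal on both arrays, at 36.6 and 36.9. Fabp5, a fatty acid binding protein that also binds retinoic acid, was bright and read 10862.3 and 9939.5 (log2 ratio -0.13). Whether ratios are compressed at such high signals was not tested.

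The receptors differed among themselves. Rarb, the receptor gene known to be induced by retinoic acid through the DR5 shown above, read 48.4 and 19.1, 2.53-fold lower (log2 ratio -1.34, probe set SD 0.52). It is dim, and its transgenic signal lies close to the brightest bacterial control. Rarg, the predominant retinoic acid receptor of epidermis, read 242.3 and 237.1 at its brighter probe set (log2 ratio -0.03) and 111.6 and 79.1 at the other (-0.50). Both probe sets of Rarg were thus under 2-fold apart. Rara read 1.8 and 2.3 at its single probe set and was not above the floor.

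Rxra, the predominant retinoid X receptor of skin, gave results that depended on the probe set. The brightest, 1454773_at, read 242.5 on both arrays. A dimmer one, 1425762_a_at, read 68.0 and 28.3, 2.40-fold lower, and 1430497_at read 2.1 and 13, with only the transgenic signal above the floor. The values do not show which of these follows the total Rxra RNA. Rxrb, which can take the same place in the receptor pair, read 286.5 and 303.4 (log2 ratio 0.08), and Rxrg read 9.6 and 17.7.

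Cyp26b1, which breaks retinoic acid down, read 38.5 in wild-type and 63.7 in transgenic follicles, 1.65-fold higher (log2 ratio 0.73, probe set SD 0.52). This did not reach 2-fold. Cyp26a1 read 0.7 and 1.2, under the floor on both arrays. Of the promoter pair with a DR5 shown above, the Rarb transcript was thus measured and lower in the transgenic follicles, and the Cyp26a1 transcript was not detected on either array.

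**Figure D2:**
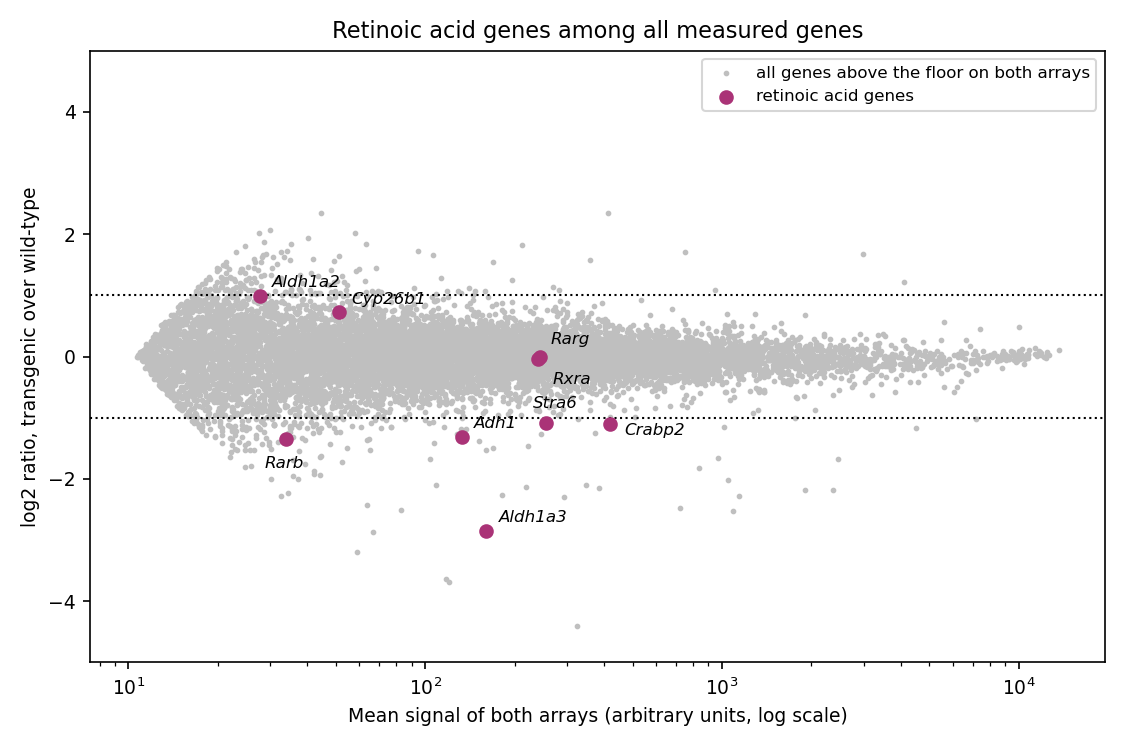
The log2 ratio of transgenic over wild-type signal against the mean signal of both arrays (arbitrary units, log scale) for all 11565 genes above the floor on both arrays (grey) and the 9 retinoic acid genes (purple), by each gene's brightest probe set, with 2-fold as dotted lines. Aldh1a3 lies at -2.85, apart from most genes of its brightness, Rarg and Rxra lie near 0, and Aldh1a2 and Rarb lie among dim genes, whose ratios scatter widely; 1 gene lies outside the plotted range.

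The 9 genes differ in brightness, which sets how closely their ratios can be read. By the brightest probe set, Stra6, Crabp2, Rarg and Rxra were in the bright tertile of genes above the floor, Adh1 and Aldh1a3 in the middle tertile, and Aldh1a2, Rarb and Cyp26b1 in the dim tertile. In the bright tertile 0.544% of 3863 genes were 2-fold lower, in the middle tertile 0.803% of 3862 and in the dim tertile 3.41% of 3840. A 2-fold difference was thus rarer among genes as bright as Stra6 and Crabp2 than among genes as dim as Rarb. Of the 9 genes, 6 rest on a single probe set, so that no second probe set bears on them. Over all 14 probe sets, 12 were above the floor on both arrays, and 7 of these were 2-fold lower and 0 were 2-fold higher, beside 1.62% lower and 2.45% higher among all probe sets.

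Ratios of the 9 genes were recomputed under other scalings of the arrays, and equal spiked controls changed the call or the sign of 5 of them. The median log2 ratio over all genes became -0.14 with equal array medians and 0.19 with equal spiked hybridisation controls. Over all genes, the count was 185 higher and 183 lower as used, 115 and 296 with equal medians, 140 and 230 with quantile normalization, 131 and 240 with loess, and 313 and 103 with equal spiked controls. With equal spiked controls Stra6 (-0.89) and Crabp2 (-0.92) were under 2-fold lower, Aldh1a2 was 2-fold higher (1.19), and Rarg (0.16) and Rxra (0.19) turned above 0. Rarb did not reach 2-fold with the floor at the 60th percentile (a bound of -0.81) or with a pseudocount (-0.99). Adh1, Aldh1a3 and Rarb stayed 2-fold lower under each of these scalings (plot of the ratios by scaling).

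**Figure D3:**
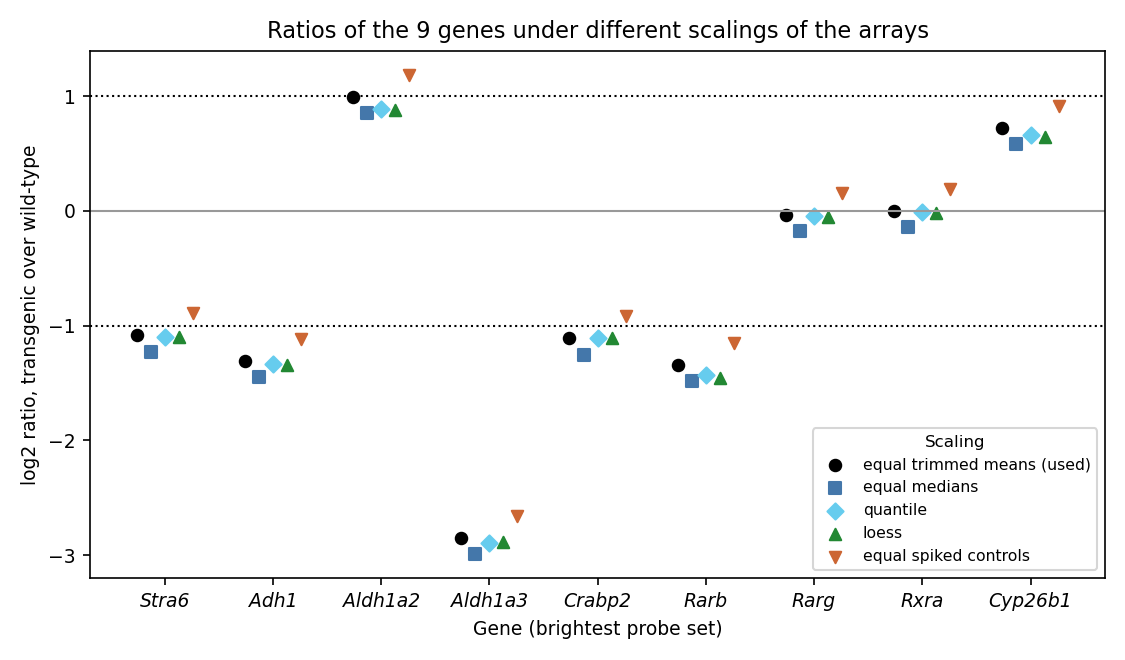
The log2 ratio of transgenic over wild-type signal of each of the 9 genes, by its brightest probe set, under 5 scalings of the arrays (symbols), with 2-fold as dotted lines. Aldh1a3 lies between -2.99 and -2.65 under all 5, whereas Stra6 and Crabp2 cross the 2-fold line with equal spiked controls.

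Other genes of retinoid metabolism, listed by step, showed few differences of this size. Of 131 genes on the pathway lists, 117 had a probe set under their symbol and 80 were measured on both arrays. Of these 80 genes, 2 were 2-fold higher and 2 were 2-fold lower, beside 1.6% and 1.58% of all genes. Their median log2 ratio was -0.09, against 0.00 over all genes, and 49 had a ratio under 1, beside 50.1% of all genes. The genes that passed 2-fold were Aldh1b1, Krt19, Rora and Rdh5 (plot of the ratios by step). Rora and Rdh5 were under 2-fold with equal array medians (0.87 and 0.95), quantile normalization (0.99 and 0.96) and loess (0.99 and 0.99), and Krt19 was with equal spiked controls (-0.96). Conversely, the list genes Rbp7, Rbp2 and Dhrs3 passed 2-fold only under other scalings, as given below.

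**Figure D4:**
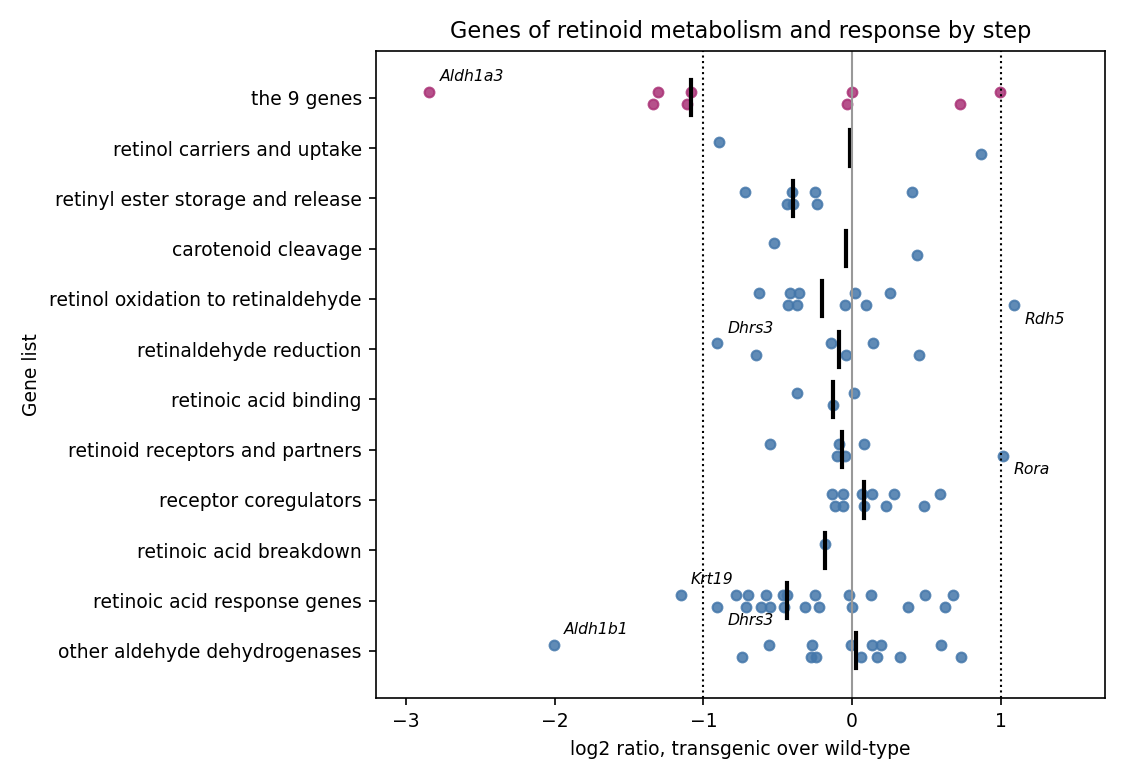
The log2 ratio of transgenic over wild-type signal of each gene above the floor on both arrays (points, brightest probe set) by gene list, with the list's median as a black bar and 2-fold as dotted lines. The median of the 9 chosen genes is -1.08, and the other lists have medians between -0.44 for retinoic acid response genes and 0.08 for receptor coregulators; the list of other retinaldehyde oxidising enzymes had no gene above the floor on both arrays and is not drawn.

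Among the carriers of retinol, 2 of 7 genes on the array were above the floor on both arrays and 0 passed 2-fold. Rbp7, a cellular retinol binding protein, read 32.4 and 17.4 (log2 ratio -0.90), and Rbp2, a binding protein of the intestine, read 13.1 and 23.9 (0.87). Both calls depended on the scaling. Rbp7 was 2-fold lower with equal array medians (-1.04), quantile normalization (-1.02) and loess (-1.02), and Rbp2 was 2-fold higher with equal spiked controls (1.06). Rbp4, the plasma carrier made mainly by liver, read 8.7 and 7.1, under the floor.

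No measured gene for the storage of retinol as esters differed 2-fold between the arrays. Of 7 measured genes of ester formation and release, 6 had a ratio under 1, beside 50.1% of all genes, 0 were 2-fold apart and the median was -0.40, which became -0.21 with equal spiked controls. Pnpla2, a lipase of stored fat, read 181.2 and 110.2 (log2 ratio -0.72), and Lipe, the hormone-sensitive lipase that can also release retinol, read 196.0 and 144.8 (-0.44). Lrat, the enzyme that esterifies retinol for storage, read 41.7 and 35.1 (-0.25). The list also serves general fat metabolism. For carotenoids, the scavenger receptor Scarb1 read 517.2 and 359.9 (-0.52) and the cleaving enzyme Bco1 read 50.3 and 68.2 (0.44).

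The dehydrogenases between retinol and retinaldehyde went both ways, with shares of lower genes to be read beside the 50.1% among all genes. Of 10 measured genes of retinol oxidation, 6 read lower in the transgenic follicles by any amount, with a median of -0.20. Rdh5, known from the retinal pigment epithelium, was 2.13-fold higher but dim, at 12.5 and 26.6, with a wild-type signal just above the floor. For the reverse step, 4 of 6 measured genes read lower, and the median stood at -0.09. Dhrs3, the reductase that returns retinaldehyde to retinol and is itself induced by retinoic acid, read 173.0 and 92.4 (1.87-fold lower, log2 ratio -0.91). With equal array medians the log2 ratio of Dhrs3 was -1.05, past 2-fold. Rdh13 read 95.0 and 60.7 (-0.65).

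Of the other aldehyde dehydrogenases, 7 of 14 measured genes read lower in the transgenic follicles by any amount, beside 50.1% of all genes, with a median of 0.03. Aldh1b1, a mitochondrial member able to use retinaldehyde, was 4.02-fold lower, at 59.5 and 14.8 (log2 ratio -2.01), with a transgenic signal in the range of the bacterial controls. Its size depended on the treatment of low signals, at -1.47 with a pseudocount and, as bounds, at -1.10 with the floor at the 60th percentile and -0.26 with a floor of 50. It was the only one of these 14 that passed 2-fold.

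Partners of the retinoid receptors and their coregulators were mostly close to equal. Among 6 measured receptors, the median was -0.07 and Rora alone passed 2-fold. Rora, an orphan receptor named for its likeness to the retinoic acid receptors, read 95.3 and 192.6 at its brightest probe set, 2.02-fold higher (log2 ratio 1.01). Of its 9 probe sets 7 were above the floor on both arrays and 5 of these were 2-fold higher, the most distant reading 47.5 and 186.7. Vdr, the vitamin D receptor, which also pairs with RXR, read 653.5 and 616.4 (-0.08, chosen after its values were seen). Of 11 measured coregulators, 0 passed 2-fold and the median was 0.08. Med1, a subunit of the Mediator complex, read 231.9 and 349.7 (0.59), and the coactivator Ncoa1 read 307.6 and 430.0 (0.48).

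Genes known to respond to retinoic acid in some tissue read lower on balance, but not by every summary. Of 21 measured genes, 16 had a ratio under 1, beside 50.1% of all genes, 1 was 2-fold lower and 0 were 2-fold higher with both signals above the floor. The median was -0.44, but -0.09 when all probe sets of a gene were averaged. It was -0.25 with equal spiked controls and -0.58 with equal array medians. The list holds no direction of response, so that a lower ratio is not read as a weaker response. Several genes had probe sets that disagree, among them Hbegf, a growth factor of the epidermal growth factor family (log2 ratios -0.61 and 0.30, chosen after its values were seen). Krt19, a keratin of simple and outer root sheath epithelium, read 83.2 and 37.4 (2.23-fold lower, log2 ratio -1.15). Gprc5c, of a receptor family named for its retinoic acid response, was at least 2.41-fold higher at a probe set that read 2.1 and 25.3, and read 18.1 and 6.8 at the other. The response genes Cyp26a1, Cdx1 and Hoxb1 were under the floor on both arrays. The list was made with earlier results of these data known, and Dhrs3, Lrat, Ppard and Cyp26a1 are on other lists too.

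Both pools showed the markers of their labelled tissue. All 15 hair shaft and inner root sheath markers on the array were above the floor, summing to 123066 in wild-type and 125295 in transgenic follicles, with 0 of them 2-fold apart. Markers of dermal papilla and fibroblasts summed to 2378.2 and 3193.4 (11 of 12 above the floor on both arrays, Sox2 under it), and sebaceous gland markers to 8548.8 and 7472.0 (6 of 9). Among the latter, Fa2h, a fatty acid hydroxylase, read 50.6 and 8.0, below the floor and at least 4.82-fold lower. Markers of interfollicular epidermis summed to 10230.5 and 7813.1 (7 of 10, with Krt1, Krt2 and Flg under the floor on both arrays). In that list involucrin (Ivl) alone read 3109.5 and 683.1, whereas 4 of the 7 had a ratio above 1 and the median log2 ratio was 0.34, opposite in sign to the difference in the sum. Markers of melanocytes summed to 14464.2 and 13315.1 (9 of 9), those of immune cells to 109.6 and 199.1 (3 of 11, Ptprc and Cd207 under the floor), and those of endothelium to 119.7 and 144.0 (4 of 7, Pecam1 under the floor). Of the 3 measured immune markers, 1 was 2-fold higher and 0 were lower (median log2 ratio 0.60), and 1 further marker was at least 2-fold higher from the floor. Of the 4 endothelial markers, 1 was 2-fold higher and 0 were lower. Of the 7 interfollicular markers, 1 was 2-fold higher and 1 lower. Beside them, 1.6% of all measured genes were 2-fold higher and 1.58% were lower. The pools also differed in sex-linked genes, with Xist at 352.0 and 1145.8 and the Y-linked Eif2s3y at 190.9 and 0.4. Of 4 sex-linked genes on the array, 1 was 2-fold higher and 3 were at least 2-fold lower from the floor. The sex make-up of the pools thus differed between the groups. In every ratio given here, a difference by sex cannot be told apart from one by the transgene. The part of the other cell types in the ratios of the 9 genes was not tested.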

How the data were processed

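The deposited values are 1 linear intensity per probe set for each array, which the authors had scaled to a 2% trimmed mean of 100, as the values show; the summary algorithm is not given in the sources used here. From these, the trimmed means without control probe sets were made equal, values under the floor (the 40th percentile) were set to it, and each gene was taken by the probe set with the highest mean. A ratio in which 1 value is the floor is a lower bound, marked "at least". Scaling hides any shift shared by all genes.

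Genes were named from the platform annotation. The identifiers of all 9 genes carried the same symbol in a RefSeq table of GRCm38.p6, and 0 probe sets with several symbols named one. The members, lists and settings were chosen with earlier results of these data known. Text names every probe set of the 9 genes, list genes that passed 2-fold or otherwise the 2 with the largest ratio, and fixed paralogues. The rule also picked Lcn2, at 19.6 in wild-type and 15.2 in transgenic follicles, and Cyp2s1, at 309.3 and 273.0, which are not described above. Lrat, Rbp4, Cdx1, Hoxb1, markers and other genes so marked were chosen after their values were seen. The 2 arrays limit the precision, and ratios carry no test. Alternatives covered scaling, floor, pseudocount, probe set choice and threshold. The calling steps were tested on simulated data, with less noise than the probe set spread and with planted differences beyond 2-fold in genes well above the floor. The simulation does not bear on dim genes or on differences near 2-fold. Python 3.11.15, pandas 2.3.3, scipy 1.17.1 and statsmodels 0.14.6 were used.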

Additional observations from a re-analysis of the deposited data

How the results depend on the processing

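No paired analysis was possible because each group is 1 array. No result changed sign among the 2-fold lower or bounded probe sets of the 9 genes under any scaling, floor or pseudocount tried. The count of the 9 genes 2-fold lower was 5, but 4 with the floor at the 60th percentile and 4 with the pseudocount, where Rarb lost its call (-0.81, a bound, and -0.99), 3 with equal spiked controls, 3 with a floor of 50 and 1 at a 3-fold threshold. The count 2-fold higher was 0, and 1 with equal spiked controls and 2 at a 1.5-fold threshold. Their median log2 ratio lay between -1.23 and -0.89 over the alternatives. Over all genes the counts, higher then lower, were 115 and 296 with equal medians, 313 and 103 with equal spiked controls, 845 and 685 with the floor at the 20th percentile, 50 and 61 at the 60th, 22 and 37 with a floor of 50, and 53 and 76 with a pseudocount. They were 735 and 784 at 1.5-fold, 27 and 40 at 3-fold, and 576 and 381 for probe sets, and averaging a gene's probe sets gave 103 and 128. Fewer or more genes pass a stricter or looser floor or threshold by construction; the cause of the other changes was not tested. With a floor of 50, the 3 were Stra6, Adh1 and Crabp2. There Aldh1a2 and Rarb were not measured, and Aldh1a3, with only the wild-type signal above the floor, had a bound of -2.50 in place of a call. Krt19 was at -0.97 with the pseudocount and at a bound of -0.74 with a floor of 50. Signals near the floor limit what can be said of Aldh1a2, Rarb and Cyp26b1.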

Other observations

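Genes whose promoter windows of 250 bases hold direct repeats of the 6-letter core of retinoid receptors, as searched above, were looked up on the arrays as a group. With a gap of 5 bases, 28 genes had such a window, 11 of them had a probe set and 2 were above the floor on both arrays. These were Rarb, at 48.4 and 19.1, and Blvrb, which encodes a biliverdin reductase, at 150.8 and 129.4 (log2 ratio -0.22). A further gene, the serine protease gene Prss27, read 22.6 and 2.5, below the floor on the transgenic array and thus at least 2.15-fold lower, whereas Syndig1 read 1.1 and 21.9, at least 2.09-fold higher. With a gap of 1 base, 20 genes were measured, 10 read lower in the transgenic follicles, 0 by 2-fold, and the median log2 ratio was -0.01. With a gap of 2 bases, 7 genes were measured, 3 read lower, 0 genes passed 2-fold in either direction, and the median was 0.22. Beside them, 50.1% of all genes had a ratio under 1, 1.6% were 2-fold higher and 1.58% were 2-fold lower. Groups this small can hold 0 such genes at those shares. These groups were formed after the values of the 9 genes were seen.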
